A study of Rattus norvegicus with 8 samples.

Results

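Signals of the Shh, Wnt, Bmp and Notch pathways were followed in skin of newborn rats through 8 genes, named by their Ensembl IDs: Shh (ENSRNOG00000006120), Ptch1 (ENSRNOG00000019354), Wnt5a (ENSRNOG00000015618), Lef1 (ENSRNOG00000010121), Bmp2 (ENSRNOG00000021276), Bmp4 (ENSRNOG00000009694), Jag1 (ENSRNOG00000007443) and Notch1 (ENSRNOG00000019322). The genes were chosen for their place in these pathways, with earlier results of these data known. All probes that carry one of these IDs were taken, which gave 18 of the 38948 probes of the array. The array files list only IDs, and 0 of the 47357 rows of the RefSeq gene table carry an Ensembl ID, so the gene names rest on the selection and could not be checked in the data. For the same reason the skin, its hair follicles and its other cell types could not be checked by marker genes, and other genes of these pathways could not be picked out.

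The skin came from Long-Evans rat pups. In the wounded group (4 samples) a cut of 3 mm was made in the back skin 3 days after birth, and the wound site was taken 36 h later. The control group (4 samples) was the matching back skin of pups that had no wound, and no sample had any other treatment. The labels give age and time only with the wound, and they do not say whether each sample was a separate animal, so p-values reflect only how much these samples vary, which may be technical. RNA was measured in one colour on printed oligonucleotide arrays. Between 43.5% and 51.4% of the probes were found above background per array by the scanner software. All control arrays were scanned before all wounded arrays, so scan order and group cannot be told apart.

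Hair follicles grow through an exchange of signals between the epithelium and the dermal papilla, the small cluster of mesenchymal cells at the follicle base. Shh is secreted by the growing follicle epithelium and binds Ptch1 on receiving cells, which then transcribe target genes through GLI factors. Wnt proteins act through beta-catenin and DNA-binding partners such as Lef1 to start follicles and to specify the hair shaft, while Bmp proteins restrain follicle growth at some stages and promote differentiation of the hair shaft at others. Notch receptors and their Jagged ligands, which act between touching cells, take part in the layering of the follicle and the epidermis.

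Promoter sequence is shown for the 2 genes that passed the test of wounding, Wnt5a and Bmp4, and for Ptch1, which is both receptor and target in the Shh pathway. The letters searched on both strands were GACCACCCA for GLI factors, CTTTGAA or CTTTGAT for TCF/LEF factors, and TGGGAA for RBPJ, the DNA-binding partner of Notch. The RefSeq promoter table of the GRCr8 build holds windows of 300 bases, 250 before and 50 after a start site, for 6 of the 8 genes and for 33469 genes in all. The 250 bases before the start are printed 5′ to 3′ on the gene's own strand, with matches in capitals. They lie at chr17:1555321-1555570 on the plus strand for Ptch1, chr16:3703415-3703664 on the plus strand for Wnt5a and chr15:22101934-22102183 on the minus strand for Bmp4. RefSeq also places the outer end of each of these 3 genes further upstream than the start used in the table.
Ptch1: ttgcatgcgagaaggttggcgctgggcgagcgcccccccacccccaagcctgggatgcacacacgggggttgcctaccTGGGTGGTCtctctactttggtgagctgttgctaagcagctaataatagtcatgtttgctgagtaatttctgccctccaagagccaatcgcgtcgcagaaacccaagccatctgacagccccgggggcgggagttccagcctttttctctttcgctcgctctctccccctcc
Wnt5a: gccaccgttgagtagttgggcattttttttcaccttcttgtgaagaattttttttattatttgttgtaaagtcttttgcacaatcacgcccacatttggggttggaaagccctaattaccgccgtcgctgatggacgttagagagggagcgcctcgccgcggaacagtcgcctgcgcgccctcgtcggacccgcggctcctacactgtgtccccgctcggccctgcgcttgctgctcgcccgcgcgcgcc
Bmp4: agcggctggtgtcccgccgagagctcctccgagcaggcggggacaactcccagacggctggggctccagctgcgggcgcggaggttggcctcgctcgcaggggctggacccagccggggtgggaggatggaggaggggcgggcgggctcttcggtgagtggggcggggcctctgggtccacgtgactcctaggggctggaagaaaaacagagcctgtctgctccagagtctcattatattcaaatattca

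In the Ptch1 window the GLI letters occurred once, on the opposite strand as TGGGTGGTC, with their first base at position -172 from the start. The same letters were in 0.385% of all windows. The Wnt5a and Bmp4 windows held none of the letters searched, and neither did those of Jag1 and Notch1. The Lef1 window held the RBPJ letters once, at position 13 after the start, as did 25.7% of all windows at least once. The TCF/LEF letters were in 8.73% of all windows and in none of the 6. A match is a string of letters and not a measured site.

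Signals are given as log2 of the background-corrected spot intensity after quantile normalization, with an offset of 50 intensity units that pulls the changes of dim probes toward 0. Each gene is described by its brightest probe and then by its other probes. Wounded and control samples were compared with limma over 12769 features, with Benjamini-Hochberg adjustment and a threshold of 0.05. For probes other than the brightest, the adjusted p comes from a fit in which each of the 19444 tested probes was a feature of its own. Each 95% interval covers 1 gene and is not adjusted for the number tested.

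Wnt5a and Bmp4, both secreted ligands, fell in wounded skin, and none of the 8 genes rose. The other 6 genes had lower means in wounded skin but did not pass the test. Thus 2 of 8 genes were called lower, where 9.65% of all features were called lower and 17.7% were called in either direction. All 8 log2 fold changes were below 0, as were 56.5% of those of all features, and their median was -0.35 against -0.05 over all features.

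**Figure D1:**
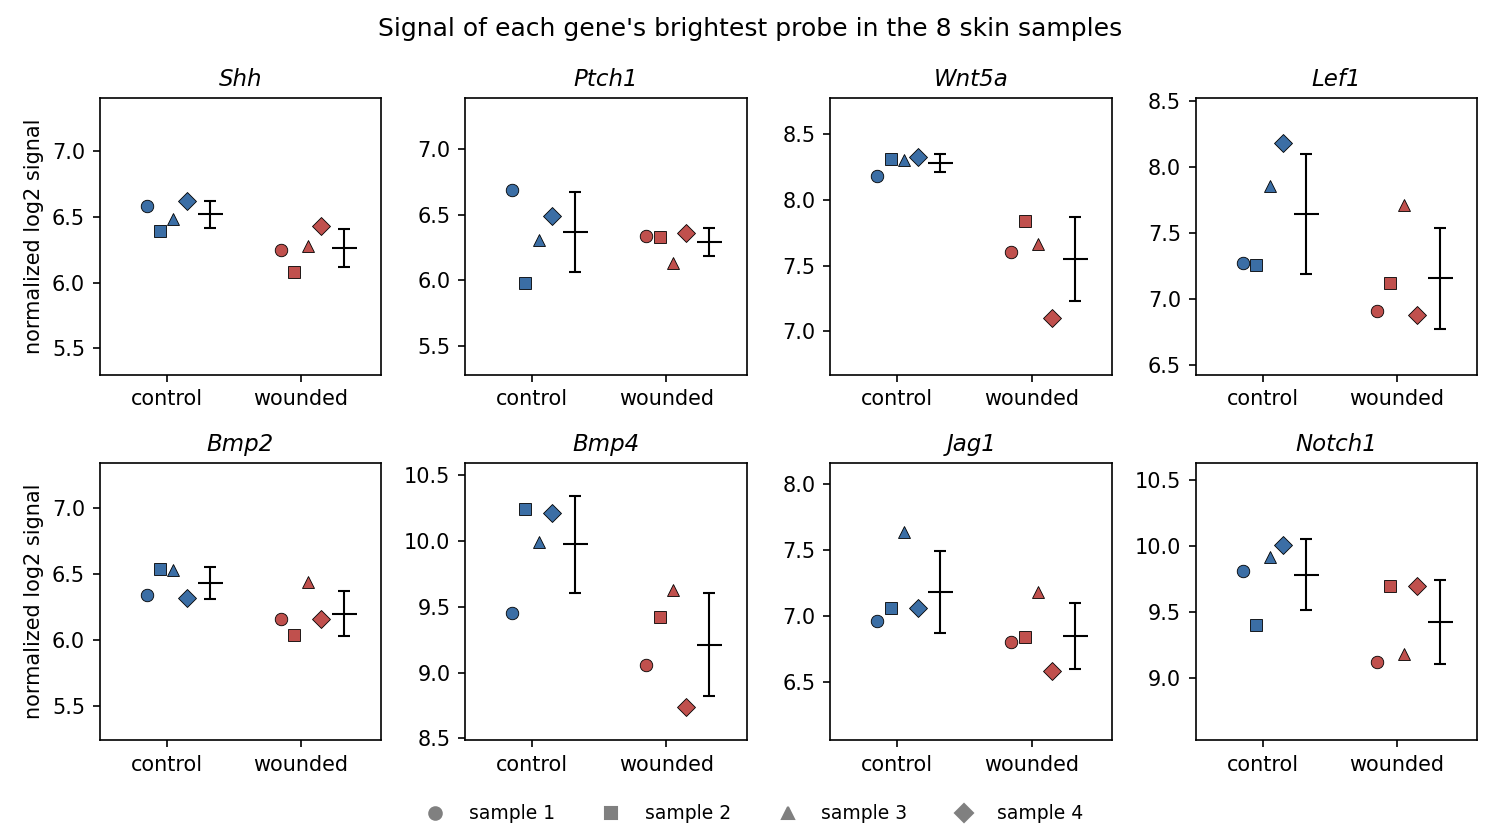
Normalized log2 signal of the brightest probe of each gene in the 4 control (blue) and 4 wounded (red) samples, with a symbol for each sample number and the mean ± SD beside each group. Every panel spans the same height on the log2 axis, so that distances, and not levels, can be compared between panels. The groups part fully for Wnt5a alone.

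Neither gene of the Shh pathway passed the test by its brightest probe. Shh, the ligand, had log2 signals of 6.58, 6.39, 6.48 and 6.62 in control samples 1 to 4 and of 6.25, 6.08, 6.28 and 6.43 in wounded samples 1 to 4. All wounded values were below the control mean, and the highest of them, wounded 4, lay just above the lowest control, control 2. The means were 6.52 ± 0.10 (SD, n = 4) and 6.26 ± 0.14 (SD, n = 4). This difference of -0.26 ± 0.099 (SE) on the log2 scale had a limma adjusted p of 0.0829 and a 95% interval of -0.47 to -0.05.

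These are weak spots. The intensity above local background was 20 to 49 units in controls and 13 to 26 in wounded samples, on arrays whose median background was 41 to 44 units. The second Shh probe was found on 4 of 4 control arrays but on 1 of 4 wounded arrays. Its log2 signals were 6.40, 6.51, 6.62 and 6.67 in controls and 6.13, 6.31, 6.18 and 6.16 in wounded samples, and the groups did not overlap. It passed the filter on dim probes only through the controls, where it was higher, and it was not found in wounded samples 1, 3 and 4, with 12 to 15 units above a local background of 44 to 46. Its log2 fold change of -0.35 ± 0.096 (SE), with a limma adjusted p of 0.0151 when every tested probe was a feature of its own, is therefore given as a description and not as a measured fall of Shh. In the authors' deposited table, which carries no offset and holds only this Shh probe, its log2 values were 4.72 to 5.48 in controls and 3.72 to 4.50 in wounded samples. Since 3 of the 4 wounded values come from spots that were not found, no measured fold is read from them. With plain background subtraction in place of the offset the brighter probe gave -0.86 (limma adjusted p = 0.106).

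Ptch1, the receptor that binds Shh and is itself transcribed in response to it, gave no detectable difference. Its brighter probe read 6.69, 5.98, 6.31 and 6.49 in controls and 6.34, 6.33, 6.13 and 6.36 in wounded samples. The control values enclosed all wounded values, and the spread lay mostly in the controls (SD 0.30 against 0.11, n = 4 each). The log2 fold change was -0.08 ± 0.12 (SE, limma adjusted p = 0.698). The interval of -0.34 to 0.18 allows a level up to 1.27-fold lower or 1.13-fold higher. Among the 6 arrays of the common number run described below the difference was 0.0031, and without control 1 it was 0.026, so its direction was not settled. The second probe was found on 3 of 8 arrays and was not tested.

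In the Wnt pathway the ligand Wnt5a showed the clearest change of the 8 genes. Wnt5a signals mainly without beta-catenin and is made in the dermal papilla and in dermis. Its brighter probe read 8.18, 8.31, 8.30 and 8.32 in controls and 7.60, 7.84, 7.66 and 7.10 in wounded samples. The controls lay within a narrow band, and all 4 wounded values were below it, wounded 4 farthest. The means were 8.28 ± 0.06 (SD, n = 4) and 7.55 ± 0.32 (SD, n = 4), so that Wnt5a fell by 0.73 ± 0.19 (SE) on the log2 scale, which is 1.66-fold (limma adjusted p = 0.0118).

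The second Wnt5a probe read 7.63, 8.16, 7.79 and 7.79 in controls and 7.10, 7.22, 6.79 and 6.91 in wounded samples, again without overlap, with a log2 fold change of -0.84 ± 0.18 (SE) and a limma adjusted p of 0.00287 over all tested probes. Intensities above background were 171 to 304 units in controls and 75 to 200 in wounded samples at the brighter probe. Of all features, 4.64% had a lower log2 fold change than Wnt5a. Under median scaling the fall was -0.65 and did not pass (limma adjusted p = 0.0697), and it passed under each of the other 23 alternatives.

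Lef1, the transcription factor that joins beta-catenin on DNA and is strongly expressed in the hair-forming cells of the follicle, depended on which of its 4 probes was read. The brightest probe read 7.27, 7.26, 7.86 and 8.18 in controls and 6.91, 7.12, 7.71 and 6.88 in wounded samples. Wounded 3 stood within the controls and the other 3 wounded samples below them. The log2 fold change was -0.49 ± 0.23 (SE, limma adjusted p = 0.165). The next probe read 7.58, 7.38, 6.75 and 7.07 in controls and 6.46, 6.76, 6.58 and 6.37 in wounded samples.

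In this second probe wounded 3 was not set apart, and only wounded 2 reached the lowest control, control 3. It was called lower when each tested probe was its own feature, with a log2 fold change of -0.65 ± 0.17 (SE, limma adjusted p = 0.0132). The third Lef1 probe was also called, with -0.44 ± 0.14 (SE, limma adjusted p = 0.0449) and no overlap between groups. The fourth and dimmest gave -0.31 ± 0.12 (SE, limma adjusted p = 0.0910). Found on 3 control arrays and 1 wounded array, it met the filter mainly through the controls, where it was higher. Its value is therefore given as a description. With the mean of the 4 probes as the value of the gene, Lef1 was at -0.47 on the log2 scale and passed (limma adjusted p = 0.00813). That mean includes the fourth probe, so its pass is likewise a description. Without wounded 3 the brightest probe passed as well, at -0.67 (limma adjusted p = 0.0476). It passed in only 1 of the 8 fits with a sample left out. The largest adjusted p among these was 0.425 (limma, without control 4).

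Among the Bmp ligands, Bmp4, which is made by the dermal papilla and other skin mesenchyme, was called lower. It read 9.45, 10.24, 9.99 and 10.21 in controls and 9.06, 9.42, 9.63 and 8.74 in wounded samples. Control 1 was the lowest control and lay below wounded 3, so the groups overlapped by that 1 pair. The means were 9.97 ± 0.37 (SD, n = 4) and 9.21 ± 0.39 (SD, n = 4). Bmp4 thus fell by 0.76 ± 0.24 (SE) on the log2 scale, or 1.69-fold (limma adjusted p = 0.0325), and 4.04% of all features had a lower log2 fold change.

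The second Bmp4 probe had a smaller difference. It read 8.42, 8.57, 8.33 and 8.81 in controls and 7.79, 8.27, 8.31 and 8.26 in wounded samples, with no overlap and a narrow gap between control 3 and wounded 3. Its log2 fold change was -0.37 ± 0.20 (SE, limma adjusted p = 0.231). The Bmp4 call was close to the threshold. It was lost without control 2 (adjusted p = 0.102), control 3 (0.0735), control 4 (0.102), wounded 1 (0.0776) or wounded 4 (0.0968), while the log2 fold change stayed between -0.94 and -0.60 over the 8 samples left out in turn. It was also lost with median scaling (-0.59, adjusted p = 0.175), with cyclic loess (-0.67, adjusted p = 0.0655), without a filter on dim probes (-0.76, adjusted p = 0.0584) and on the authors' values (-0.68, adjusted p = 0.101), all in limma.

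Bmp2, a related ligand of the hair matrix, was near the limit of detection. Its brighter probe, found on 3 control and 2 wounded arrays, read 6.34, 6.54, 6.53 and 6.32 in controls and 6.16, 6.04, 6.44 and 6.16 in wounded samples. Only wounded 3 reached the controls. Intensities above background were 26 to 34 units in controls and 11 to 24 in wounded samples. The log2 fold change was -0.23 ± 0.10 (SE, limma adjusted p = 0.130), with an interval of -0.44 to -0.02. Without wounded 3 it was -0.31 and passed (limma adjusted p = 0.0362). That was the only call in the 8 fits with a sample left out. The largest adjusted p among these was 0.317 (limma, without wounded 2). Plain background subtraction, with no offset, made the log2 fold change of the brighter probe -0.87 without a call (limma adjusted p = 0.140). The second probe, found on 4 of 8 arrays, gave -0.07 ± 0.096 (SE, limma adjusted p = 0.693), with groups that overlapped widely.

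The 2 genes of the Notch pathway did not pass. Jag1, the ligand, read 6.96, 7.06, 7.64 and 7.06 in controls and 6.80, 6.84, 7.18 and 6.58 in wounded samples. Within each group sample 3 was the highest, and the other 3 wounded samples lay below all controls. Its log2 fold change was -0.33 ± 0.18 (SE, limma adjusted p = 0.219), and its second probe gave -0.22 ± 0.14 (SE). The interval of the brighter probe allows a level up to 1.63-fold lower or 1.03-fold higher.

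Notch1, the receptor, which is expressed in epidermis and in the differentiating hair, read 9.81, 9.40, 9.92 and 10.01 in controls and 9.12, 9.70, 9.18 and 9.70 in wounded samples. Wounded 2 and 4 lay above control 2, and wounded 1 and 3 below all controls. Its log2 fold change was -0.36 ± 0.22 (SE, limma adjusted p = 0.283). The second probe, far dimmer, gave -0.35 ± 0.15 (SE, limma adjusted p = 0.123). The interval of the brighter Notch1 probe allows a level up to 1.76-fold lower or 1.07-fold higher, which takes in a fall as large as that of Wnt5a.

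**Figure D2:**
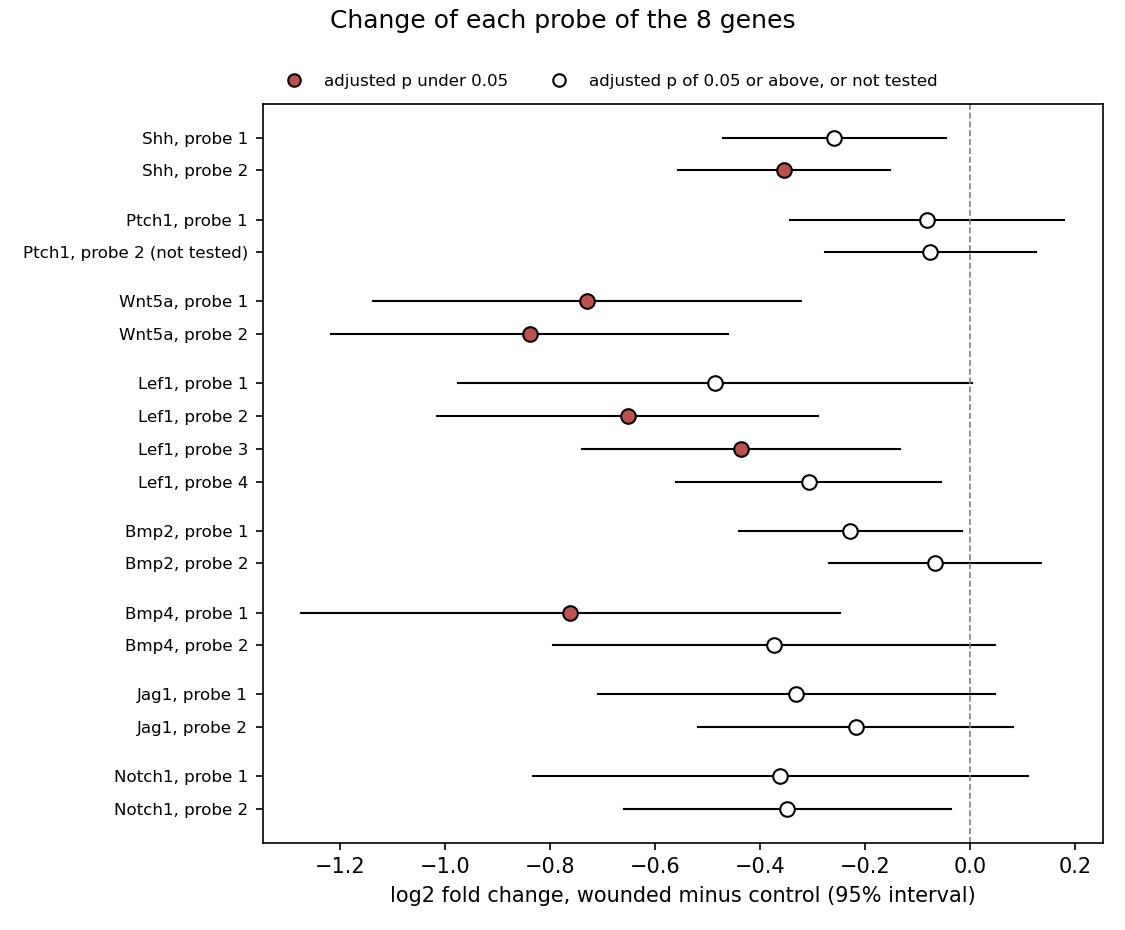
Log2 fold change (wounded minus control) of each probe of the 8 genes with its 95% interval, probes numbered by signal within a gene; filled points had an adjusted p under 0.05 with each tested probe as its own feature. All 18 points lie left of 0, and 6 are filled: both of Wnt5a, 2 of Lef1, 1 of Bmp4 and 1 of Shh, the last found on 1 of 4 wounded arrays.

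Probe by probe, all 18 probes had a log2 fold change below 0, as did 53.5% of all 38948 probes. For each of the 8 genes every probe was below 0, which was also true of 32.1% of the 11247 Ensembl IDs with at least 2 probes. Of the 17 probes that were tested, 6 were called lower, against 8.53% of all tested probes. They are probes of Wnt5a, Lef1 and Bmp4 and the second probe of Shh. Because that Shh probe was tested only through the group in which it was higher, nothing is read from the count beside the share of all probes. Probes of one gene share their RNA and arrays and are not replicates. At the level of the brightest probe the wounded values lay wholly below the control values for 1 of the 8 genes, against 12.3% of all features.

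**Figure D3:**
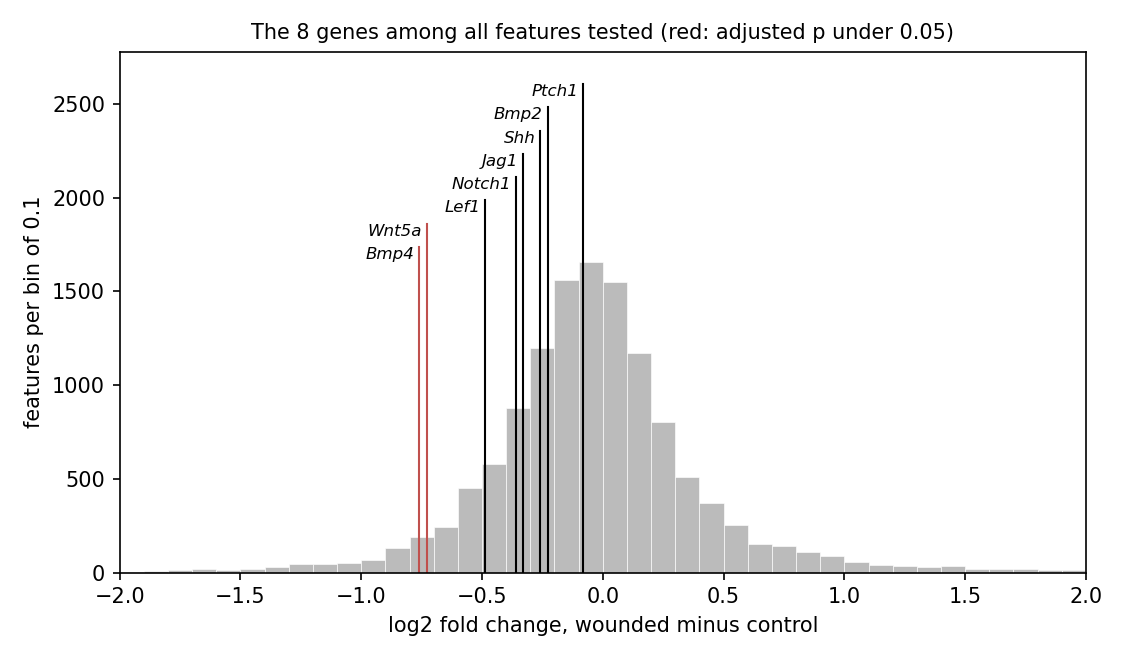
Number of features per bin of log2 fold change (grey) with the brightest probe of each of the 8 genes marked by a line, red for Wnt5a and Bmp4. The axis is cut at -2 and 2, and 152 features lie outside. The lines lie between -0.76 and -0.08, all left of 0. Of all features, 4.04% had a lower log2 fold change than Bmp4 and 45.8% a lower one than Ptch1.

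In whole skin, fewer cells of a type and less RNA per cell cannot be told apart, and the part of cell makeup in the falls of Wnt5a and Bmp4 was not tested. Control 1 and wounded 4 carry array numbers outside the run shared by the other 6 arrays, control 1 below it and wounded 4 above it. Within those 6 arrays Wnt5a was at -0.61 (limma adjusted p = 0.0312) and Bmp4 at -0.78 (adjusted p = 0.0230). With the 2 arrays set as a block the adjusted p was 0.00399 for Wnt5a and 0.00608 for Bmp4 in limma. The labels do not name these 2 arrays as a batch, so this block is an assumption. Wounded 4 was the lowest wounded sample in 4 of the 8 genes, among them Wnt5a and Bmp4, and wounded 3 the highest in 4. Without wounded 4 the log2 fold change of Wnt5a was -0.58 (adjusted p = 0.0340).

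Among features with an Ensembl ID, ENSRNOG00000031459 (Pearson r = 0.99) and ENSRNOG00000007428 (r = 0.986) followed the Bmp4 signal most closely over the 8 arrays. Their log2 fold changes were -0.44 (limma adjusted p = 0.0450) and -0.23 (adjusted p = 0.262). The 8 points include the difference between groups, and no symbol for either ID is given in the files.

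**Figure D4:**
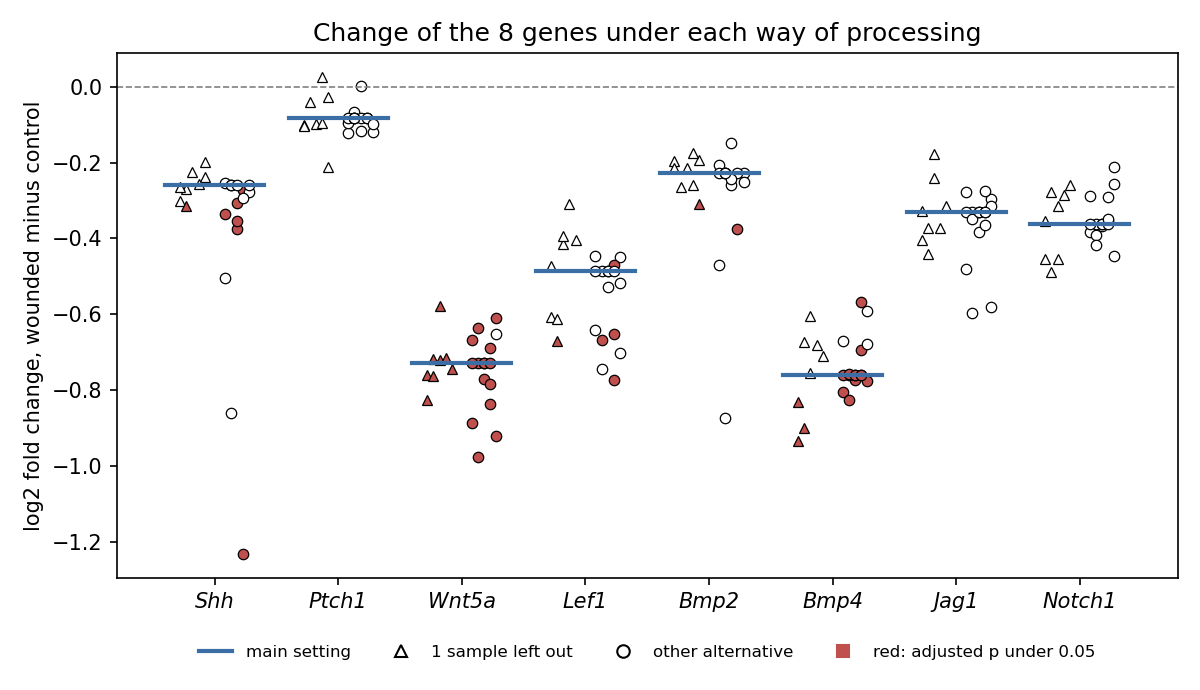
Log2 fold change (wounded minus control) of each gene under the main setting (blue bar), with 1 sample left out (triangles) and under the other alternatives (circles); red points had an adjusted p under 0.05. Wnt5a is red in 23 of 24 points and Bmp4 in 15 of 24, while Ptch1, Jag1 and Notch1 are red in 0.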

How the data were processed

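Per the labels, total RNA of skin was amplified into biotin-labelled cRNA for one-colour hybridisation. The deposited scanner files hold linear intensity values for every spot and its surround, read at 635 nm with GenePix Pro 4.1.1.4 without normalization, per the file headers. A second table deposited by the authors holds log2 values in 16198 rows. With rows of one probe averaged, 16048 to 16079 per array matched a spot with an intensity above background. Of these, 99.9% to 100% equalled log2 of the background-subtracted median pixel, shifted by 1 constant, to within 0.02. The column medians of the authors' table were 6.98 to 7.06, and how its rows were chosen is unknown here.

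Median pixels were corrected with normexp (offset 50), 1240 control or unnamed spots of 40320 were left out, spots marked bad were dropped, and log2 values were quantile normalized. Probes found on at least 4 of 8 arrays were kept (19444 of 38948), and the brightest probe stood for an Ensembl ID. All 8 genes and 17 of their 18 probes passed this filter. Wounded and control samples were compared with limma 3.58.1 (lmFit, eBayes with a trend, 2-sided) in R 4.3.3, adjusted over all 12769 features. The method was tested on simulated data. The number of arrays limits the precision. Alternatives covered background, foreground, scaling, filter, probe rule, values, variance model, weights, blocks and each sample left out.

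The 8 genes, the gene lists and the tests were chosen with earlier results of these data known. The rule for named genes took the 8 genes, lists of other pathway, follicle and cell type genes by symbol, and the 2 features most like the called gene with the largest fall and rise. The lists could not be matched to IDs and were not run, and no gene of the 8 rose.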

Additional observations from a re-analysis of the deposited data

Results flagged for a closer look

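In 4 of 36 sets (18 probes, 2 groups of 4 samples) 1 sample stood far from the other 3 of its group. By chance this happens in about 1 of 20 sets. The sample wounded 3 read 6.13 at the brighter Ptch1 probe, against 6.33 to 6.36 in its group. Control 1 read 8.18 at the brighter Wnt5a probe, against 8.30 to 8.32 in the other controls, and still lay above all wounded samples. Wounded 1 read 7.79 at the dimmer Bmp4 probe, against 8.26 to 8.31. Control 3 read 7.64 at the brighter Jag1 probe, against 6.96 to 7.06.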

How the results depend on the processing

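Of the 24 alternatives, each gave a log2 fold change below 0 for Shh, Wnt5a, Lef1, Bmp2, Bmp4, Jag1 and Notch1 wherever it tested them. The direction of Ptch1 turned to 0.0031 in the 6 arrays of the number run and to 0.026 without control 1. The number of genes called was 2 in the main setting, where 9.65% of all features were called lower. It was 0 with median scaling, where Wnt5a gave -0.65 and Bmp4 -0.59, and 1 with cyclic loess, where Bmp4 gave -0.67, and without a filter on dim probes, where Bmp4 stayed at -0.76 with more features to adjust over. Median scaling also moved the split of calls over all features from 1023 higher and 1232 lower to 960 and 761, and cyclic loess to 1152 and 999. The share of all features called lower was 5.96% with median scaling, 7.82% with cyclic loess and 4.91% without the filter. The number was 5 with the mean pixel, which added Shh (-0.27), Lef1 (-0.77) and Bmp2 (-0.38). It was 4 with the mean of a gene's probes (Shh -0.31, Lef1 -0.47), with array weights (Shh -0.33, Lef1 -0.67) and with each probe its own feature (Shh -0.35, Lef1 -0.65, the probe with the smallest p). Without background correction Shh was called at -0.38, and 9.51% of all features were called lower. Where a setting changed the background, foreground, scaling, filter or values, the brightest probe was picked anew. Which probe stood for Shh without background correction, or for Shh, Lef1 and Bmp2 with the mean pixel, is not shown. For Shh it may be the probe found on 1 of 4 wounded arrays, so neither -0.38 nor -0.27 is read as a measured fold. On the authors' values 2 of the 6 genes present passed the threshold, with Shh at -1.23 and Bmp4 lost at -0.68. The Shh values of -1.23 and -0.35 come from the probe found on 1 of 4 wounded arrays, so neither is a measured fold. The Shh mean of -0.31 includes that probe. The Lef1 mean of -0.47 includes a Lef1 probe that was also found on 1 of 4 wounded arrays. Neither mean is a measured fold. For each of these changes between settings the cause was not tested.

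With single samples left out, the fits gave 1 to 4 genes called, with log2 fold changes of -0.83 to -0.58 for Wnt5a, -0.94 to -0.60 for Bmp4, -0.67 to -0.31 for Lef1, -0.31 to -0.20 for Shh, -0.31 to -0.17 for Bmp2, -0.44 to -0.18 for Jag1, -0.49 to -0.26 for Notch1 and -0.21 to 0.026 for Ptch1. In a fit with a replicate block by sample number, 2 genes were called, Wnt5a (adjusted p = 0.0224) and Bmp4 (adjusted p = 0.0347, limma), and over all features 1079 were lower and 987 higher. Deviations of same-numbered samples correlated at -0.276 to -0.0091. Those of control 1 and wounded 4, the 2 arrays outside the number run, correlated at 0.403. No pairing by sample number was seen, but 4 such values cannot exclude it. Shh, Ptch1 and Bmp2 lie close to the background, which limits what their probes can show.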
